A study of Mus musculus with 12 samples.

Results

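The 10 genes described here carry out antigen presentation by class I molecules of the major histocompatibility complex (MHC), and they were chosen by symbol as 10 of the 24421 rows of a count table. They are the heavy chain genes H2-K1, H2-D1 and H2-T23, the light chain gene B2m, the proteasome genes Psmb8 and Psmb9, the peptide transporter genes Tap1 and Tap2, the loading factor gene Tapbp and the regulator gene Nlrc5. All 10 passed the filter on low counts that left 13534 genes to test. The libraries came from subcutaneous melanomas grown for 12 days in C57BL/6 hosts, with the highly metastatic line B16F10 (n = 7) set against the poorly metastatic line B16F0 (n = 5). Every host, in both groups, carried Rpl22fl/flHA;Cdh5(PAC)-CreERT2 and received tamoxifen. Cre driven by the endothelial Cdh5 promoter then puts an HA tag on the ribosomal protein Rpl22 in blood vessel cells, and precipitation of the tag enriches their ribosome-bound mRNA. The B16 tumour cells themselves carry no tag. Nothing in the labels ties the libraries to separate animals. The p-values therefore describe the spread between these libraries, and that spread may be technical.

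Class I molecules show peptides from inside a cell to CD8 T cells and to receptors of natural killer cells. The proteasome cuts the peptides, the Tap1 and Tap2 transporter moves them into the endoplasmic reticulum, and tapasin, the product of Tapbp, holds the empty heavy chain with its light chain beta-2-microglobulin while a peptide is fitted. Interferon-gamma, acting in part through Nlrc5, is the classical inducer of the whole set. Endothelial cells present peptides on class I constitutively, whereas B16 melanoma cells are known for little class I at rest and for regaining it under interferon-gamma. The relation to endothelial content therefore bears on where the class I transcripts of these precipitates came from, though it assigns no read to a cell. The comparison of the lines asks only whether levels differed between the groups.

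The start regions of the members are shown first, because elements known to answer interferon and NLRC5 lie in such regions. Of the 10 members 8 had a window in the RefSeq table (GRCm38.p6), which spans 250 bases before to 50 bases after the annotated start. The sequences are written 5' to 3' on the gene's strand, and capitals mark matches, on either strand, to 7 motifs. These were 2 kappaB-like elements, GAANNGAAA and the same core with 1 more A before the gap (both read by interferon factors), TTCNNNGAA (a GAS-like element), TGACG (an X2-like box) and CCAAT (the Y box). The motifs were chosen after earlier results were known.
H2-K1 (chr17:34000298-34000597, minus strand): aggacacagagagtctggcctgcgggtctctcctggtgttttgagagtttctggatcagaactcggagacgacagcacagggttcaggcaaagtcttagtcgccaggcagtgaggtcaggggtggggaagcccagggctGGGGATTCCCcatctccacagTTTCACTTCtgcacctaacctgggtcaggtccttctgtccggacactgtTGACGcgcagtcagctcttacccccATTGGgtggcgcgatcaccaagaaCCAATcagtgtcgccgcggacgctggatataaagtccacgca
H2-D1 (chr17:35262844-35263143, plus strand): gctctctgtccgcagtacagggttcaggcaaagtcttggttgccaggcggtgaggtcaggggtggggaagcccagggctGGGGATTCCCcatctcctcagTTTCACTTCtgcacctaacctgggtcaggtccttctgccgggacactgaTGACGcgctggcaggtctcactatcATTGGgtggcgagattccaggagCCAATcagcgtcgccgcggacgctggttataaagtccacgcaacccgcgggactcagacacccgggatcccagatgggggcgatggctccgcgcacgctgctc
B2m (chr2:122147437-122147736, plus strand): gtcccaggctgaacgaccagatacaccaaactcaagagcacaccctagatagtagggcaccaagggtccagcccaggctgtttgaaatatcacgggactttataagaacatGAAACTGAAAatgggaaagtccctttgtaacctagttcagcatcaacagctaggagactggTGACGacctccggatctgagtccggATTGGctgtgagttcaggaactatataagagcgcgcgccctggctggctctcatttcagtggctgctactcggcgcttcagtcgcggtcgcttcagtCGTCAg
Tap1 (chr17:34187306-34187605, plus strand): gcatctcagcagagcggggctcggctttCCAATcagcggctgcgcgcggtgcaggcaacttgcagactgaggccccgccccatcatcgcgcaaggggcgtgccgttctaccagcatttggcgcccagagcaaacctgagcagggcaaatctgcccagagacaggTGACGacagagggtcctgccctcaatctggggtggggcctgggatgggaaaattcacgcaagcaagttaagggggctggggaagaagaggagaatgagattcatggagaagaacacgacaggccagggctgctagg
H2-K1 and H2-D1 carried the kappaB-like element, an interferon core, the X2-like box and Y boxes in the same order, with the kappaB-like element at -111 and -171 and the interferon core at -90 and -150 from the annotated start. The annotated start lies at a different place in the row of elements. The last Y box is at 9, after the start, in H2-K1 and at -53 in H2-D1. Which start is in use was not tested. The 2 windows were identical at 211 of 239 aligned bases (88.3%). Their kappaB-like element was in 35 of 32851 windows of the table (0.107%), among the members in these 2 alone. The core GAANNGAAA was in 7.52% of windows and in H2-K1 and H2-D1, while the longer core was in 3.44% and in B2m (at -139) and H2-T23 (at -124). The other kappaB-like element was in 0.359% of windows and in 0 member windows, and TTCNNNGAA in 8.3% and in Psmb8. TGACG was in 5 and CCAAT in 7 of the 8 member windows, against 20.8% and 37.4% of all windows. The windows of Tap1 and Psmb9, which are read in opposite directions, shared 275 bases, so the printed Tap1 window serves both. Their TGACG and CCAAT matches are the same sites, counted in both windows. Since the H2-K1 and H2-D1 windows are also much alike, the counts over 8 member windows are not counts of independent windows. No match of one motif overlapped a match of another in the printed windows. A match describes letters only and is no evidence of binding.

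On the same build H2-K1 (chromosome 17, 33996017 to 34000347), Tap1 (34187553 to 34197225), Psmb9 (34181987 to 34187764), Psmb8 (34197721 to 34201454), Tap2 (34203527 to 34216321), Tapbp (33915899 to 33929292), H2-D1 (35262730 to 35267499) and H2-T23 (36029773 to 36032855) lie within the MHC of chromosome 17. B2m lies on chromosome 2 (122147686 to 122153083) and Nlrc5 on chromosome 8 (94434356 to 94527272). Some of their reads may belong to neighbours or relatives. Of the 50-base stretches of their coding transcripts, 29.8% of H2-T23, 22.4% of Tapbp, 13.9% of H2-D1, 12.1% of Tap2, 9.71% of Psmb9, 6.87% of H2-K1, 6.27% of Tap1 and 5.51% of Psmb8 also occur in a transcript of another gene on either strand, and none of B2m or Nlrc5. Exons of Psmb9 and Tap1 overlap on opposite strands by 212 bases, those of Tapbp share 149 bases with Zbtb22 on the same strand and 904 with genes on the other, and the strand setting of the counting is not given in the sources used here.

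The libraries differed widely in what was precipitated. Totals ran from 5322510 to 20569186 counts in B16F10 and from 10753106 to 17381336 in B16F0, spread over lanes 1, 2 and 6 of the sequencer. Cdh5, the endothelial cadherin, stood at 482 to 764 CPM (counts scaled to library size, with TMM factors) in B16F10 replicates 4 and 5 and B16F0 replicate 3, and at 78.6 to 206 CPM in the other 9. Dct, a melanin enzyme of the tumour cells, stood at 4033 to 7975 CPM in B16F10 and 4720 to 9968 CPM in B16F0, so tumour cell transcripts were carried along in all libraries. Rn45s, the ribosomal RNA precursor, made up 31.4% of the counts of B16F10 replicate 5, 8.91% of those of B16F0 replicate 5 and at most 1.75% elsewhere. Chemosensory receptor genes (1501 rows), used to gauge background, together reached 960 CPM in B16F10 replicate 1, 778 CPM in B16F10 replicate 2 and at most 340 CPM elsewhere. The 15 macrophage markers summed to 40.0 to 280 CPM in B16F10 and 71.3 to 302 CPM in B16F0, and none was at 0 in all libraries. Of 11 T and NK cell markers 1 passed the filter, and their sum was 2.24 to 10.1 CPM in B16F10 and 0.789 to 7.80 CPM in B16F0. The 4 B cell markers summed to at most 3.05 and 4.96 CPM in the same order.

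The classical heavy chain genes varied widely within each line. H2-K1, which encodes the K heavy chain, had a median of 134 CPM in B16F10 (67.5 to 187) and of 142 CPM in B16F0 (61.2 to 154). H2-D1, which encodes the D heavy chain, had a median of 34.7 CPM in B16F10 (19.7 to 64.9) and of 49.9 CPM in B16F0 (15.7 to 67.4). The groups overlapped over almost their whole range for both genes. H2-T23, the gene of the non-classical Qa-1 heavy chain that engages NK cell receptors, stood at 3.60 to 9.84 CPM in B16F10 and 3.95 to 10.2 CPM in B16F0. B16F10 replicates 4 and 6 were the 2 highest libraries for H2-K1, and with B16F0 replicate 3 they were the 3 highest for H2-D1 and H2-T23.

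B2m, the light chain shared by all class I molecules, did not keep the order of the heavy chains. Its level was 248, 152, 144, 226, 68.7, 369 and 74.6 CPM in B16F10 replicates 1 to 7, against 433, 218, 238, 156 and 103 CPM in B16F0 replicates 1 to 5. B16F0 replicate 1 was the highest library and B16F10 replicate 5 the lowest, and the groups overlapped. The ratio of B2m to H2-K1 counts was 0.513 in B16F10 replicate 5, the library with most Rn45s reads, and 1.01 to 2.25 in the other 6 of that line, against 1.42 to 3.05 in B16F0. Whether the Rn45s reads bear on this was not tested.

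Psmb8 and Psmb9 encode catalytic subunits that replace Psmb5 and Psmb6 in the immunoproteasome. Psmb8 stood at 14.3, 4.70, 8.65, 17.4, 12.6, 17.1 and 2.88 CPM in B16F10 replicates 1 to 7, against 13.1, 13.3, 21.3, 4.003 and 4.82 CPM in B16F0 replicates 1 to 5. Psmb9 had a median of 2.66 CPM in B16F10 (0.607 to 6.66) and of 3.39 CPM in B16F0 (0.419 to 6.31), a range of 15.9-fold over the 12 libraries on counts of 4 to 135. The log2 ratio of Psmb8 to Psmb5 reads ran from -1.56 to 1.99 in B16F10 (median 0.56) and from -0.85 to 1.07 in B16F0 (median -0.54). That of Psmb9 to Psmb6 ran from -6.94 to -3.14 (median -4.65) in B16F10 and from -7.20 to -3.51 (median -5.31) in B16F0. Both ratios differed from library to library, and the lines overlapped.

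Tap1 stood at 27.4, 9.90, 10.9, 33.2, 14.7, 29.6 and 3.72 CPM in B16F10 replicates 1 to 7, against 23.1, 19.8, 26.2, 6.77 and 7.86 CPM in B16F0 replicates 1 to 5. Tap2 stood at 12.8, 5.20, 9.08, 27.7, 24.4, 14.99 and 4.25 CPM in B16F10 replicates 1 to 7, against 18.1, 18.9, 26.3, 6.48 and 4.82 CPM in B16F0 replicates 1 to 5. B16F10 replicate 7 was the lowest library for both. Tap2 was highest in the 3 libraries rich in Cdh5, all of them above the other 9, whereas Tap1 was also high in B16F10 replicates 1 and 6, which are not rich in Cdh5. Tapbp had the narrowest range, 22.2 to 59.5 CPM in B16F10 and 31.4 to 48.3 CPM in B16F0.

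Nlrc5, the transactivator of the class I genes, stood at 45.0, 14.9, 3.15, 15.3, 7.18, 50.5 and 4.02 CPM in B16F10 replicates 1 to 7, against 12.7, 6.53, 13.3, 7.72 and 17.6 CPM in B16F0 replicates 1 to 5. B16F10 replicates 1 and 6 stood far above the other 10 libraries, and B16F10 replicate 3 was the lowest, so that the B16F0 values lay inside the B16F10 range. The first of these 2 libraries had the highest background reads of the series (960 CPM, without TMM factors) and the second 79.3 CPM. The part of background reads in the level of Nlrc5 was not tested.

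**Figure D1:**
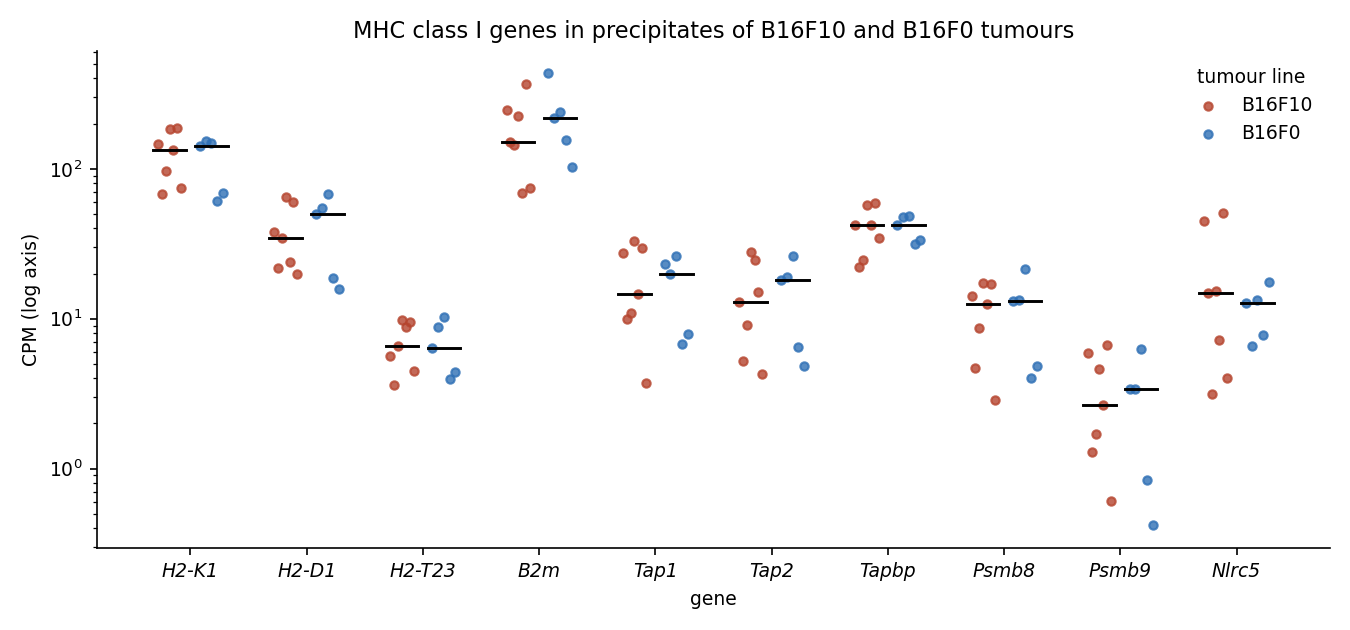
CPM on a log axis of the 10 genes, one point per library, B16F10 (n = 7, left) and B16F0 (n = 5, right), with a bar at the median. The 2 lines overlap for every gene, and Psmb9 and Nlrc5 spread most, over about 16-fold.

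Levels of different genes can be compared roughly per kilobase of annotated exon, pooled over all transcripts of a gene. By this measure B2m was the most abundant member at 213 ± 124 CPM per kb in B16F10 (SD, n = 7) and 267 ± 146 CPM per kb in B16F0 (SD, n = 5). H2-K1 followed at 43.2 ± 16.7 and 39.2 ± 15.6 CPM per kb in the same order, and then H2-D1 (14.6 ± 7.10 and 16.02 ± 8.90) and Tapbp (11.1 ± 4.02 and 11.2 ± 2.17). H2-D1 and Tapbp did not differ beyond their spread. Psmb8, Tap1, Tap2, H2-T23 and Nlrc5 lay within 1.36 to 3.95 CPM per kb in either line and overlapped one another. By this measure Psmb9 was lowest at 0.916 ± 0.652 in B16F10 and 0.785 ± 0.648 in B16F0. The pooled exon length can exceed that of the coding transcripts, unequally between genes. Psmb9 has 3660 exon bases and 1679 distinct 50-base stretches in its coding transcripts, and Psmb8 3381 and 1669. B2m has 860 and 811, and Nlrc5 8493 and 8025. The order of the less abundant members can therefore depend on the length used. For scale, Cdh5 stood at 62.2 ± 56.9 and 65.5 ± 65.7 CPM per kb, and the constitutive subunit genes Psmb5 and Psmb6 at 8.66 ± 3.73 and 41.6 ± 17.3 CPM per kb in B16F10 and 12.5 ± 5.49 and 45.2 ± 17.4 CPM per kb in B16F0.

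None of the 10 members passed the test between the tumour lines. With the lane in the model, log2 fold changes (B16F10 over B16F0) ran from -0.23 for B2m to 0.60 for Psmb9, and edgeR's quasi-likelihood test gave Benjamini-Hochberg adjusted p from 0.759 to 0.983. At an unadjusted p under 0.05 the count of members was also 0, where 14.8% of all tested genes passed. It was 0 as well with DESeq2 and with limma-voom with quality weights, at a false discovery rate of 0.05. Over all genes 375 of 13534 were called (2.77%), 176 of them higher (1.3%) and 199 lower (1.47%) in B16F10. The median log2 fold change of the members was 0.18, beside 0.019 over all tested genes. The groups overlapped for all 10 members, where 2.73% of tested genes had groups that did not. The standard errors ran from 0.25 for Tapbp to 0.71 for Psmb9 and 0.64 for Nlrc5 (log2). In the authors' deposited table the log2 fold changes of the members ran from -0.25 to 0.54 with adjusted p from 0.788 to 0.981.

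For 9 of the members the sign of these small differences was not the same in all lanes. B2m was lower in B16F10 in all 3. In lane 1 (2 libraries of each line) mean log2 CPM was lower in B16F10 for all 10 members, by differences of -0.69 to -0.19. In lane 2 (2 B16F10, 1 B16F0) it was lower for 9 members, and higher for Nlrc5 by 1.02. In lane 6 (3 B16F10, 2 B16F0) it was higher for 8 members, by up to 1.69 for Psmb9, and nearly equal for B2m (-0.034) and Nlrc5 (-0.031). The pooled direction therefore did not hold within lanes, except that of B2m. For B2m the lane 2 difference (-1.16) rests on 1 B16F0 library, replicate 1. Without B16F0 replicate 1 the log2 fold change of B2m was 0.074. Lane 6 holds B16F10 replicate 6, and without that library the fold change of Nlrc5 was -0.21 and that of Psmb9 0.18.

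**Figure D2:**
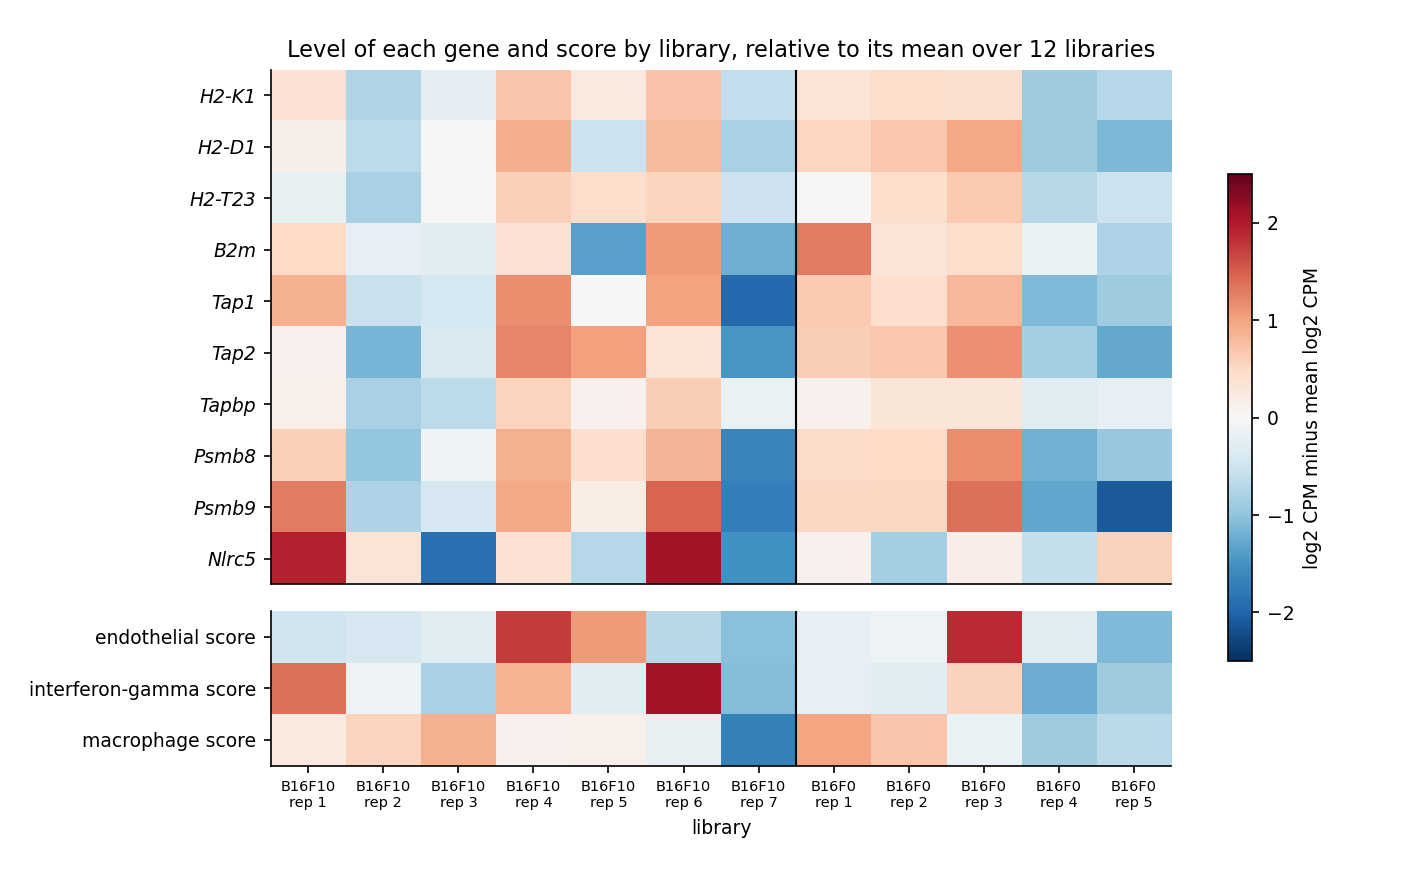
Level of each member (rows) in each library (columns, B16F10 left of B16F0), as log2 CPM minus the gene's mean over 12 libraries, above the endothelial, interferon-gamma and macrophage scores on the same scale. Most rows change together from library to library, with B16F10 replicates 4 and 6 and B16F0 replicate 3 high and B16F10 replicate 7 and B16F0 replicates 4 and 5 low.

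The levels of the members were correlated across the 12 libraries, with both lines pooled. No correlation was computed inside a single line. After lane and line means were removed, Pearson's r between members had a median of 0.86 over 45 pairs and 12 libraries, from 0.43 for Tap2 with Nlrc5 to 0.96 for H2-K1 with H2-T23 and for Tap1 with Psmb8. Without B2m and Nlrc5 the 28 pairs ran from 0.75 to 0.96. These values are descriptions, since all genes of a library share its depth, scaling and cell content. B2m and Nlrc5 stood apart, with median r to the other members of 0.68 each, against 0.86 to 0.92 for the other 8. B16F10 replicate 6 was among the 3 highest libraries for 9 of 10 members and B16F10 replicate 4 for 7, while B16F10 replicate 7, B16F0 replicate 4 and B16F0 replicate 5 were each among the 3 lowest for 7. These 3 low libraries were all run in lane 6, as was B16F10 replicate 6, and the part of the lane in their low levels was not tested. The lane 6 libraries are also the ones whose names carry no prefix, so lane and name set cannot be told apart there.

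Endothelial content was then set against the members. As a score, the log2 CPM of 20 pan-endothelial genes were averaged in each library, which gave 5.32 ± 1.02 in B16F10 (SD, n = 7) and 5.36 ± 1.10 in B16F0 (SD, n = 5; exact permutation test, two-sided, p = 0.952, adjusted over 4 scores 0.982). A slope of 1 means that a gene doubles when the mean endothelial gene doubles. Following the score means a slope above 0.5 and a limma adjusted p under 0.05, with lane and line in the model. By this rule 490 of 13534 genes followed (3.62%), all 20 score genes among them, and 0 of the 10 members did. In bulk libraries fewer cells of a type and less RNA per cell cannot be told apart. A further limit is that the score rests on few libraries. Without the 3 of highest score 0 genes of the whole table followed it. Of these 3, B16F10 replicate 4 and B16F0 replicate 3 share a prefix in their library names that no other library has. With the prefix in place of the lane, 467 genes and 0 members followed, and the slope of Tap2 was 0.97 (limma adjusted p = 0.0717).

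Tap2 came closest, with a slope of 0.75 ± 0.22 (SE; limma adjusted p = 0.0796). It followed the score in 6 of 29 alternatives. These were models with the macrophage score added (0.74, limma adjusted p = 0.0342), with the line alone as covariate (0.78, 0.0171) and without lane 2 (0.73, 0.0338). They were also those without B16F10 replicate 2 (limma adjusted p = 0.0477), without B16F10 replicate 6 (0.0345) and without B16F0 replicate 1 (0.038), within a range of 0.0171 to 1 over all alternatives. Its slope was lowest without the libraries with most Rn45s (0.52, limma adjusted p = 0.218) and without B16F10 replicate 5 (0.57, 0.171), and without B16F10 replicate 3 it was 0.69 (0.348). Psmb9, Psmb8 and Tap1 had slopes of 0.62 ± 0.35, 0.51 ± 0.25 and 0.48 ± 0.27 (SE) that did not pass (limma adjusted p = 0.332, 0.269 and 0.322). The heavy chains H2-T23, H2-K1 and H2-D1 and the loading gene Tapbp had slopes of 0.21 to 0.27, and B2m one of 0.013 ± 0.24 (SE; limma adjusted p = 0.982). The median slope of the members was 0.27, beside -0.0062 over all tested genes and 1.01 over the score genes, which define the score. All 10 slopes were above 0. At an unadjusted p under 0.05 with a positive slope there was 1 member, Tap2, where 11% of all tested genes met the same rule.

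By library, H2-K1 ranged over 134 to 183 CPM in the 3 of highest endothelial score and reached 187 CPM among the remaining 9. B2m ranged over 68.7 to 238 CPM in those 3 and reached 433 CPM among the others. Tap2, at 24.4 to 27.7 CPM against at most 18.9 CPM, was the member whose 2 ranges did not meet. The score chose these libraries, so no test is given. No difference of slope between the tumour lines passed the test. The interaction of score and line was called for 0 of 13534 genes by limma (0% of genes, 146 at an unadjusted p under 0.05) and its unadjusted p was under 0.05 for 0 members, with differences (B16F10 minus B16F0) of -0.54 to 0.12. No other tool was run for it.

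**Figure D3:**
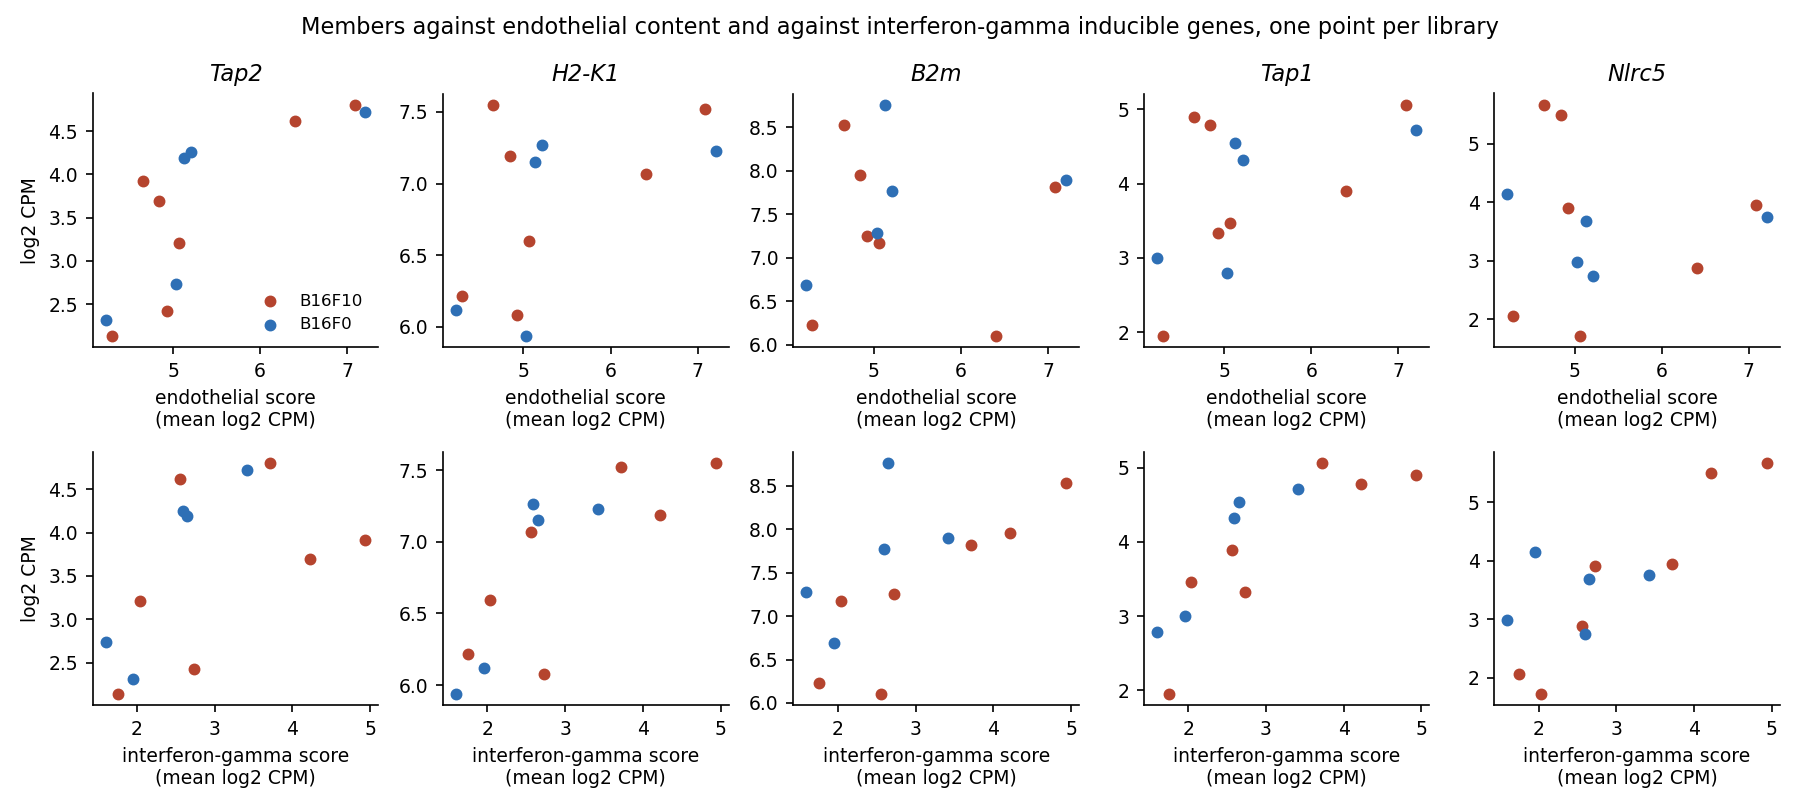
log2 CPM of 5 members against the endothelial score (top) and the interferon-gamma score (bottom), one point per library, coloured by line. Tap2 is highest in the 3 libraries of highest endothelial score, while Tap1 and Nlrc5 line up with the interferon-gamma score.

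On the macrophage score, the mean log2 CPM of 15 markers (2.47 ± 0.83 in B16F10, SD, n = 7, and 2.46 ± 0.83 in B16F0, SD, n = 5; exact permutation p = 0.982), 3 of all tested genes followed (0.0222%) and 0 members. The members' slopes were 0.025 to 0.66 (limma adjusted p from 0.522 to 0.99), all above 0. B16F10 replicate 7 and B16F0 replicates 4 and 5, low in most members, also had the lowest macrophage scores (0.77, 1.57 and 1.80), and the part of macrophage content in their low levels was not tested. All 3 are of lane 6. With both scores in the model Tap2 alone followed the endothelial score (4.03% of all genes did) and 0 members followed the macrophage score (0.0296% of genes). Csf1r, the macrophage growth factor receptor, had r = -0.088 with the members' mean pattern over 12 libraries, Ptprc, the pan-leukocyte phosphatase CD45, 0.31, Cdh5 0.48, Pecam1 0.48 and Dct -0.20, all after lane and line means were removed.

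On the melanocytic score, the mean log2 CPM of 17 pigment cell genes (8.21 ± 0.26 in B16F10, SD, n = 7, and 8.55 ± 0.23 in B16F0, SD, n = 5; exact permutation p = 0.0492, adjusted over 4 scores 0.197), 0 members passed in either direction. Of all tested genes 14.6% followed it and 16.2% had a slope below -0.5 past the same threshold, so it is not specific to pigment genes. The members' slopes ran from -2.68 for Nlrc5 to 0.23 for B2m, and 9 of 10 were below 0 (limma adjusted p from 0.11 to 0.862). This score spanned only 7.98 to 8.74 in B16F10 and 8.30 to 8.83 in B16F0. The endothelial score spanned 4.29 to 7.08 and 4.23 to 7.21 in the same order. Slopes per unit, and the cut of 0.5, are therefore not on a like scale across scores.

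By the rule for likeness (highest Pearson's r with the members' mean standardised level over 12 libraries after lane and line means were removed, mean of at least 5 CPM), the first 10 were H2-Q4 (r = 0.973), Cmpk2 (0.973), Gbp2 (0.956), Psme2 (0.954), Irgm2 (0.953), Ddx58 (0.953), Ifit3 (0.946), Bst2 (0.935), Cxcl9 (0.931) and Gbp3 (0.928). H2-Q4 is another class I heavy chain gene, and Psme2 encodes a subunit of the PA28 proteasome activator. Gbp2, Gbp3 and Irgm2 are interferon-inducible GTPases, Ddx58 encodes the RNA sensor RIG-I, and Cxcl9 a chemokine for T cells. The r values are descriptions and carry no test. Of these 10, 6 were in the 2 interferon lists, H2-Q4 was in the list of other class I heavy chains, Psme2 was in that of other proteasome genes, and Cmpk2 and Irgm2 were in none.

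A score of interferon-gamma inducible genes was added after these patterns were seen, as was one of type I interferon genes. It is the mean log2 CPM of the 13 tested genes of a list of 17 interferon-gamma inducible genes (guanylate-binding proteins, immunity-related GTPases, Cxcl9, Cxcl10, Cd274 and Batf2), with no member in it. Its level was 4.22, 2.73, 2.04, 3.72, 2.56, 4.94 and 1.75 in B16F10 replicates 1 to 7, against 2.65, 2.59, 3.42, 1.597 and 1.95 in B16F0 replicates 1 to 5 (exact permutation test, two-sided, p = 0.268, adjusted over 4 scores 0.535). B16F10 replicates 6 and 1 were highest, and the groups overlapped.

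All 10 members had positive slopes on this score, and 2 passed the threshold. The slopes ran from 0.34 for H2-T23 to 1.08 for Nlrc5, with a median of 0.58 beside 0.0020 over all tested genes. Nlrc5 (1.08 ± 0.14, SE; limma adjusted p = 0.00929) and Tap1 (0.81 ± 0.13, SE; 0.0494) followed the score, 2 of the 14 genes of the whole table that did (0.103%). Of the other 12, 9 were genes of the score itself and 3 were Gm4951, Ifi47 and Irgm2. Psmb9, Psmb8, B2m, Tap2 and H2-D1 had slopes of 1.00, 0.72, 0.58, 0.57 and 0.53 that did not pass (limma adjusted p = 0.163, 0.269, 0.461, 1 and 0.173). At an unadjusted p under 0.05 with a positive slope there were 10 of 10 members, where 1.03% of all tested genes met that rule. The members and the list are both known interferon-gamma targets and were chosen with results of these data known, so this count is a description and no independent evidence.

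The limma adjusted p of Tap1 (0.0494) lay near the threshold and that of Nlrc5 (0.00929) further below it, yet both calls depended on single libraries. The slopes changed little whichever library was left out (1.01 to 1.20 for Nlrc5 and 0.71 to 0.92 for Tap1). The call of Nlrc5 was lost without B16F10 replicate 1 (slope 1.04, limma adjusted p = 0.0642), replicate 3 (1.08, 0.0636), replicate 6 (1.20, 0.13) or replicate 7 (1.01, 0.0534), without lane 2 (1.06, 0.0964) and with the line alone as covariate (1.04, 0.0778), with slopes of 0.91 to 1.79 and limma adjusted p of 0.00708 to 0.929 over all alternatives. Tap1 kept its call when B16F10 replicate 5 or B16F0 replicate 1 was left out and lost it when any other single library was (slopes 0.71 to 0.92, limma adjusted p from 0.0967 to 0.233), and also without lane 2 (0.80, 0.189) and with the name prefix in place of the lane (0.82, 0.0573). With the prefix Nlrc5 kept its call (1.03, 0.0216) and H2-D1 followed as well (0.56, 0.0228). The limma adjusted p of Tap1 ran from 0.0142 to 0.815 over all alternatives. The highest Nlrc5 slope, 1.79, was on the score of type I interferon genes, whose unit is not alike. Without both B16F10 replicates 1 and 6, the slopes of Nlrc5 and Tap1 were 1.13 and 1.05 (limma adjusted p = 0.0571 and 0.0506). The score then ran with the endothelial score (r = 0.837 over 10 libraries, against 0.265 over 12), and 394 genes followed it.

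With the endothelial and the interferon-gamma scores in one model, the members' median endothelial slope was 0.14 and their median interferon-gamma slope 0.57. Tap2 kept the steepest endothelial slope, 0.61 ± 0.19 (SE; limma adjusted p = 0.135), while B2m and Nlrc5 had slopes of -0.19 and -0.086, and 0 members followed (3.17% of all genes did). On the interferon-gamma score in that model Nlrc5 had a slope of 1.10 ± 0.15 (SE; limma adjusted p = 0.0117) and Tap1 one of 0.75 ± 0.12 (SE; 0.0568), so that 1 member followed (0.0887% of all genes did). On a score of 15 type I interferon genes instead, Tap1 followed (1.47, limma adjusted p = 0.0491) and Nlrc5 did not (1.79, 0.124), with 0.0961% of genes following. All 10 members had positive slopes on the type I score as well, with a median of 1.09. That score varied less between libraries (SD 0.59 in B16F10 and 0.53 in B16F0) than the interferon-gamma score (1.18 and 0.70). The 2 sets of slopes are therefore not on a like scale. The members' unadjusted limma p was under 0.05 for all 10, where 213 of 13534 genes had such a p in either direction. The pattern was thus not particular to the interferon-gamma score.  Ifng itself, the gene of the ligand, had 0 to 4 counts per library and was at 0 in 7 of 12.

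**Figure D4:**
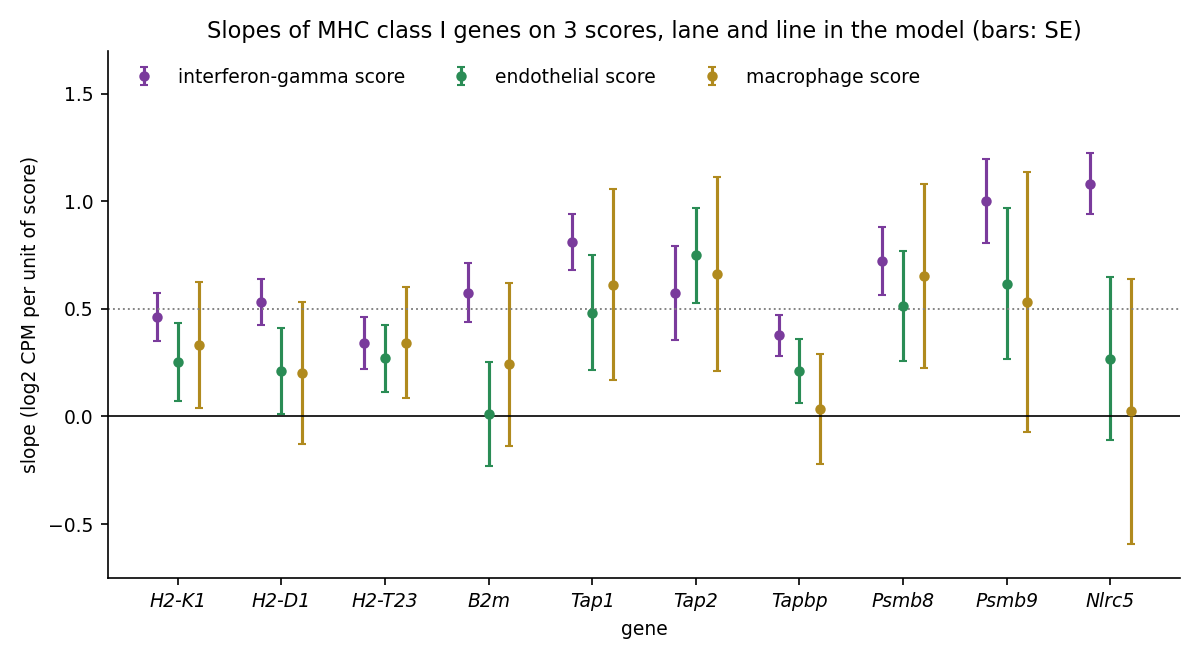
Slope of each member's log2 CPM on the interferon-gamma, endothelial and macrophage scores, each fitted alone with lane and line, with bars of 1 SE over 12 libraries. The dotted line marks the slope of 0.5 that a gene must exceed to be said to follow a score. Nlrc5, Psmb9 and Tap1 have the steepest interferon-gamma slopes and Tap2 the steepest endothelial slope.

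The rest of the pathway held no called gene between the lines. Of 19 other class I heavy chain and class I-like genes 6 were tested and 0 passed (median log2 fold change 0.074), nor did any of 5 peptide loading and trimming genes (-0.30), 7 other proteasome genes (-0.15), 17 regulators (0.030), 13 tested interferon-gamma inducible genes (1.34), 15 type I interferon genes (-0.18) or 6 tested class II genes (0.82), all in edgeR's test and beside 0.019 over all genes. At an unadjusted p under 0.05 these lists held 1, 0, 2, 1, 2, 0 and 0 genes, where 14.8% of all tested genes passed. Gbp2, of the interferon-gamma list, was at 43.8 and 59.8 CPM in B16F10 replicates 1 and 6 and at 4.47 to 37.9 CPM in the other 5 B16F10 libraries, against 2.09 to 18.1 CPM in B16F0. Of these lists 0 genes followed the endothelial score.

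Among the other heavy chains and class I-like genes, Fcgrt, which encodes the neonatal Fc receptor, had the smallest p on the endothelial score (slope 0.43 ± 0.12, SE; limma adjusted p = 0.0643) and no slope on the interferon-gamma score (0.021). Mr1, which presents vitamin metabolites, had an endothelial slope of -0.29 (limma adjusted p = 0.221), H2-M3, a presenter of formylated peptides, one of 0.45 (0.236), and Cd1d1, a presenter of lipids, one of 0.44 (0.316). The loading chaperone genes Pdia3, Canx and Calr stood at 743 ± 309, 1935 ± 779 and 710 ± 299 CPM in B16F10 (SD, n = 7) and 937 ± 349, 2421 ± 791 and 893 ± 379 CPM in B16F0 (SD, n = 5). Their endothelial slopes were -0.35, -0.28 and -0.16 and did not pass (limma adjusted p = 0.243, 0.371 and 0.644). Tapbpl, a tapasin relative that edits peptides, had a slope of 0.28 (limma adjusted p = 0.29).

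The constitutive proteasome genes Psmb6, Psmb5 and Psmb7 had negative endothelial slopes of -0.25, -0.30 and -0.22, and Pomp, the proteasome maturation factor, one of -0.16 (limma adjusted p from 0.272 to 0.438). Of the regulators, Rfxank, a subunit of the RFX factor, Ifngr1, an interferon-gamma receptor chain, Nfkb1 and the kinase gene Jak2 had slopes of 0.22, 0.21, 0.17 and 0.19, none past the threshold (limma adjusted p from 0.228 to 0.36). Nfkb1 had the smallest p of the regulators between the lines, at 67.4 ± 9.82 CPM in B16F10 (SD, n = 7) and 49.5 ± 13.6 CPM in B16F0 (SD, n = 5; log2 fold change 0.53, edgeR adjusted p = 0.0885).

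Of the interferon-inducible genes, Cxcl9, Gbp3, Iigp1 and Cxcl10 had endothelial slopes of 0.91, 0.53, 0.64 and -0.28, and Ifi44, Oasl2, Usp18 and Ddx58 slopes of 0.85, 0.69, 0.43 and 0.37, none past the threshold (limma adjusted p from 0.0917 to 0.441). The class II genes H2-Aa, H2-DMb1, H2-Ab1 and H2-Eb1, which professional presenting cells express, were at group means of 0.994 to 8.32 CPM and had negative endothelial slopes of -0.46 to -0.20 (limma adjusted p from 0.466 to 0.786).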

How the data were processed

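Ribosome-bound mRNA of 12 tumour precipitates was sequenced, 7 of B16F10 and 5 of B16F0, with the ScriptSeq kit per the labels. Whole-number counts of reads for each gene symbol were deposited. Per the submitters' processing notes, the build was mm10, and the tools included featureCounts 1.6.0, STAR 2.2.1, cutadapt 1.16, R 3.3.2 and edgeR. Annotation and strand setting: not given in the sources used here. The authors' deposited comparison table gives log2 fold changes and p-values with decimal commas, read as points. Their normalized table was not used.

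Groups and lanes came from the labels. Of 24421 symbols 13534 passed filterByExpr of edgeR 4.0.16 (minimum count 10), were scaled by TMM and tested with the quasi-likelihood F test (lane and line, Benjamini-Hochberg, false discovery rate 0.05) in R 4.3.3, with a biological coefficient of variation of 0.318. Slopes were fitted with limma 3.58.1 (trend) on log2 CPM with prior count 2, lane and line. DESeq2 1.42.0 and limma-voom were alternatives, the latter with quality weights between the lines and without them for slopes. The named list genes are those called between the lines and up to 4 per list with the smallest p on the endothelial score. The members, lists and rules were chosen with earlier results of these data known. Library pairs within a group differed beyond counting noise (chi-square of counts). The fits were tested on simulated counts. Coordinates and exon lengths are from GENCODE M21 (23363 symbols found, 95.7%), start regions from RefSeq.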

Additional observations from a re-analysis of the deposited data

Results flagged for a closer look

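Within B16F10, replicate 3 stood apart on the melanocytic score, at 8.74 against 7.98 to 8.26 in the other 6 libraries of that line. Replicate 7 stood apart on the macrophage score, at 0.768 against 2.28 to 3.36 in the other 6. Both were flagged because the gap to the nearest library took up more of the group's range than Dixon's criterion allows. Of 28 sets of libraries examined (10 members and 4 scores in 2 lines) 2 were flagged, where chance flags about 5%. B16F10 replicate 7 was also the lowest library for Tap1, Tap2 and Psmb8. None of the members was itself flagged in either line.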

How the results depend on the processing

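Over 29 alternatives the members called between the lines stayed at 0. Genes higher and lower in B16F10 (176 and 199) became 325 and 305 with the name prefix in place of the lane, and 407 and 445 with DESeq2. They became 333 and 336 using limma-voom with quality weights, and 96 and 81 without lane 2. When the 2 libraries with most Rn45s were dropped they were 111 and 125. Without B16F10 replicates 1 and 6 (added after the data were seen) they were 96 and 84, and at a false discovery rate of 0.1 they were 289 and 354. Leaving out 1 library gave 104 to 199 and 99 to 247 (104 higher and 99 lower without B16F0 replicate 4, and 126, 124, 118 and 117 lower without B16F10 replicates 1 and 2 and B16F0 replicates 1 and 5). The lower genes became 131 without a batch term and 115 with the interferon-gamma score (added after the data were seen). B16F10 replicates 1 and 2 and B16F0 replicate 1 have name prefixes found in a single line. With the prefix in the model they therefore add nothing to the line difference. Equal replicate numbers did not pair the libraries (r of deviations -0.287 to 0.322, over 0.1 in 1 of 5 pairs, with 0 of 5 best matched). With the replicate block in place of the lane 30 genes were higher and 28 lower, 121 genes followed the endothelial score, and 0 genes and 0 members followed the interferon-gamma score (Tap1 0.89, Nlrc5 0.91).

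Fold changes turned sign, none past the threshold, in 49 of 290 values. They were -0.14 (H2-D1), -0.092 (Tap2), -0.0098 (Tapbp) and -0.031 (Psmb8) without a batch term, 0.063 (B2m) with the prefix, -0.089 (H2-D1) and -0.17 (Tapbp) with the replicate block, -0.053 (Tapbp) without a filter, -0.057 (Tap2) and -0.018 (Tapbp) with the endothelial score, 0.089 (B2m) without lane 2, and -0.23 (Tap2) and -0.078 (Tapbp) without the 3 libraries of highest endothelial score. Without the libraries rich in Rn45s they were -0.12 (H2-D1), -0.044 (H2-T23), -0.32 (Tap2), -0.084 (Tapbp) and -0.037 (Psmb8). With the interferon-gamma score they were -0.13 (H2-K1), -0.37 (H2-D1), -0.11 (H2-T23), -0.44 (Tap1), -0.30 (Tap2), -0.29 (Tapbp), -0.37 (Psmb8), -0.36 (Psmb9) and -0.71 (Nlrc5). Without B16F10 replicates 1 and 6 they were -0.21 (H2-D1), -0.13 (Tap1), -0.16 (Tapbp), -0.14 (Psmb8), -0.088 (Psmb9) and -0.45 (Nlrc5). Leaving out 1 library they ran from -0.71 to 0.074 (B2m), -0.18 to 0.39 (H2-D1), -0.029 to 0.35 (H2-T23), -0.21 to 0.84 (Nlrc5), -0.042 to 0.47 (Psmb8), -0.16 to 0.55 (Tap2) and -0.12 to 0.19 (Tapbp).

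Members following the endothelial score became 1 (Tap2) with the line only, with the macrophage score and without lane 2, and 0 to 1 leaving out 1 library. All genes following it (490) became 266 with the melanocytic score, 0 without the 3 libraries of highest score, 195 without the 2 farthest from the median, 1068 without the libraries rich in Rn45s and 325 to 820 leaving out 1 library (325 without B16F10 replicate 3, 801 without B16F10 replicate 5, 820 without B16F0 replicate 1). Endothelial slopes turned sign for Nlrc5 with the line only (-0.050), the melanocytic score (-0.44), the interferon-gamma score (-0.086) and without the 2 farthest libraries (-0.40), and for B2m with the interferon-gamma score (-0.19), for B2m and Nlrc5 with the prefix in place of the lane (-0.29 and -0.33, added after the data were seen), for B2m without lane 2 (-0.0063) and without the 2 farthest (-0.18). Leaving out 1 library they ran from -0.070 to 0.75 (Nlrc5) and -0.077 to 0.32 (B2m).

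The interferon-gamma results were all added after the data were seen. Members following became 1 with the line only, with the endothelial score and with the type I list, 0 without lane 2 and without B16F10 replicates 1 and 6, and 0 to 3 leaving out 1 library. All genes following (14) became 5 without lane 2, 394 without B16F10 replicates 1 and 6, and 1 to 18 leaving out 1 library (5, 9, 8, 1 and 8 without B16F10 replicates 1, 2, 3, 6 and 7). No interferon-gamma slope of a member turned sign. The causes of these changes were not tested. Psmb9 had the fewest reads of the members, 4 to 135 counts per library.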
